A study of Mus musculus with 18 samples.

Results

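The 9 genes described here encode enzymes that lengthen and desaturate fatty acids in the endoplasmic reticulum of the liver. They were taken by name from tables listing 23352 gene symbols, as 5 elongases (*Elovl1*, *Elovl2*, *Elovl3*, *Elovl5* and *Elovl6*), 2 desaturases (*Fads1* and *Fads2*) and 2 reductases that serve every elongase (*Hsd17b12* and *Tecr*). None of the 9 carried a failed estimate. The study asked how loss of *Gpr180*, a gene for a membrane protein of the G protein-coupled receptor type, alters liver lipid metabolism. Liver mRNA was sequenced from 9 wild-type and 9 *Gpr180*KO male mice, all 20 weeks old and all on a high-fat diet (HFD). The knockout was a homozygous whole-body deletion of *Gpr180* exon 6 made by genome editing in C57BL/6J eggs, so tissues other than the liver lacked the gene too, and the wild-type mice carried no edited allele.

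Values are FPKM, fragments per kilobase of transcript per 1000000 mapped reads, with 1 library per mouse. The sample titles come in 2 styles, which are called here title set 1 (mice W317 to W320 and KO319 to KO322, 4 per genotype) and title set 2 (W131, W133, W134, W156 and W157, and KO51 to KO54 and KO56, 5 per genotype). The labels do not say what divides them. *Gpr180* RNA was 6.79 ± 1.99 FPKM in wild-type livers and 1.602 ± 0.371 FPKM in *Gpr180*KO livers (SD, n = 9 each), with every *Gpr180*KO liver below every wild-type liver, and since only exon 6 was removed these are reads of the exons that remain. All 8 hepatocyte markers examined were abundant in every liver. KO51 had the highest summed FPKM of the 18 libraries (718746, against a lowest sum of 554796). Over the 10835 genes tested the median log2 difference between genotypes was -0.13 with FPKM as deposited and 0.02 after median-of-ratios scaling, which divides each library by its median ratio to the typical library. That shift of more than 0.1 touches every small difference below. With FPKM as deposited 464 genes were called lower and 49 higher, and after the scaling 145 lower and 146 higher. A gene was called when its Benjamini-Hochberg adjusted p from limma, fitted across all those genes, was under 0.05.

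Elongation adds a pair of carbons to an acyl chain in a cycle of 4 reactions. An ELOVL enzyme condenses the acyl-CoA with malonyl-CoA and decides which chains are extended, the ketoacyl-CoA reductase HSD17B12 carries out the next step, a HACD dehydratase the one after it, and the enoyl-CoA reductase TECR completes the cycle. The desaturases FADS2 and FADS1 place double bonds in dietary polyunsaturated fatty acids in alternation with ELOVL5 and ELOVL2, and the liver is the main site of that route to arachidonic and docosahexaenoic acid.

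The promoters of the 3 members that were lower in *Gpr180*KO livers are shown first, because sterol and lipid-regulated genes are often described by the motifs near their start. RefSeq sequences (GRCm38.p6) of the stretch from 250 bases before to 50 bases after the start were given for 7 of the 9 members, and not for *Elovl3* or *Fads1*. Capitals mark matches on either strand to the GC box (GGGCGG, or CCGCCC on the other strand), the CCAAT box (CCAAT or ATTGG) and the nuclear receptor core motif (AGGTCA or TGACCT). The *Elovl6* window is chr3:129532136-129532435 on the plus strand, the *Hsd17b12* window is chr2:94157860-94158159 on the minus strand and the *Elovl1* window shown is chr4:118427843-118428142 on the plus strand, the one of its 2 windows that belongs to the gene start in the files.
Elovl6: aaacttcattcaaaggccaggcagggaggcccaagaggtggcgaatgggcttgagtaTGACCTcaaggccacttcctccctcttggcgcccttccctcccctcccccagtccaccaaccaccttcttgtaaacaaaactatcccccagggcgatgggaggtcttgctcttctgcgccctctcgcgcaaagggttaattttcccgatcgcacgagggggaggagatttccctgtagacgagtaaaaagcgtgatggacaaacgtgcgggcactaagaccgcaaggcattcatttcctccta
Hsd17b12: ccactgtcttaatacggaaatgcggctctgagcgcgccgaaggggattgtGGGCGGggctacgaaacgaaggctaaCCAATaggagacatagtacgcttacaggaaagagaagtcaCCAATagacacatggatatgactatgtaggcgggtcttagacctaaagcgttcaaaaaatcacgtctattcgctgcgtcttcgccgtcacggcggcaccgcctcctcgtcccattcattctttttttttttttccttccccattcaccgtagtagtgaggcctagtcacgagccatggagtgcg
Elovl1: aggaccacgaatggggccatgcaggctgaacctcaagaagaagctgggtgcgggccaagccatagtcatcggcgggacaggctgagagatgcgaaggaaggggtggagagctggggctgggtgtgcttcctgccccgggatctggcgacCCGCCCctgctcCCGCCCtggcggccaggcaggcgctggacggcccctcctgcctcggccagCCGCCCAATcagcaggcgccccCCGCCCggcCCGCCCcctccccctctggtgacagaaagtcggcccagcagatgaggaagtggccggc
The *Elovl6* window held 1 nuclear receptor motif and no other match, *Hsd17b12* held 2 CCAAT boxes and 1 GC box, and *Elovl1* held 5 GC boxes and 1 CCAAT box that overlaps the central GC box. The other *Elovl1* window, chr4:118429451-118429750, held 2 GC boxes and 1 nuclear receptor motif. Of 32851 promoters of the same length, 35.7% held a GC box, 37.4% a CCAAT box and 16.3% a nuclear receptor motif, so none of these matches is rare. A sterol regulatory element written as TCACNCCAC, present in 1.24% of promoters, was matched in none of the members' windows. The E-box CACGTG, present in 7.15%, was matched in the window of *Elovl5* only. A match describes the letters and is no evidence of binding, and the missing matches say only that these letters are not in these 300 bases.

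Of the 9 members, 3 were lower in *Gpr180*KO livers, 1 was higher and 5 did not pass the test. Among all genes tested 4.28% were called lower and 0.452% higher. The members' median log2 difference was -0.29, against -0.13 over all genes. *Elovl6* fell to 58.7% of the wild-type mean, *Elovl1* to 77.3% and *Hsd17b12* to 80.2%, while *Elovl3* was 1.88-fold higher. After median-of-ratios scaling 1 member was called lower (*Elovl6*; 1.34% of all genes) and 1 higher (*Elovl3*; 1.35%), and the members' median was -0.13 against 0.02 over all genes. The calls of *Elovl6* and *Elovl3* were therefore held under both scalings, and those of *Elovl1* and *Hsd17b12* were not.

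**Figure D1:**
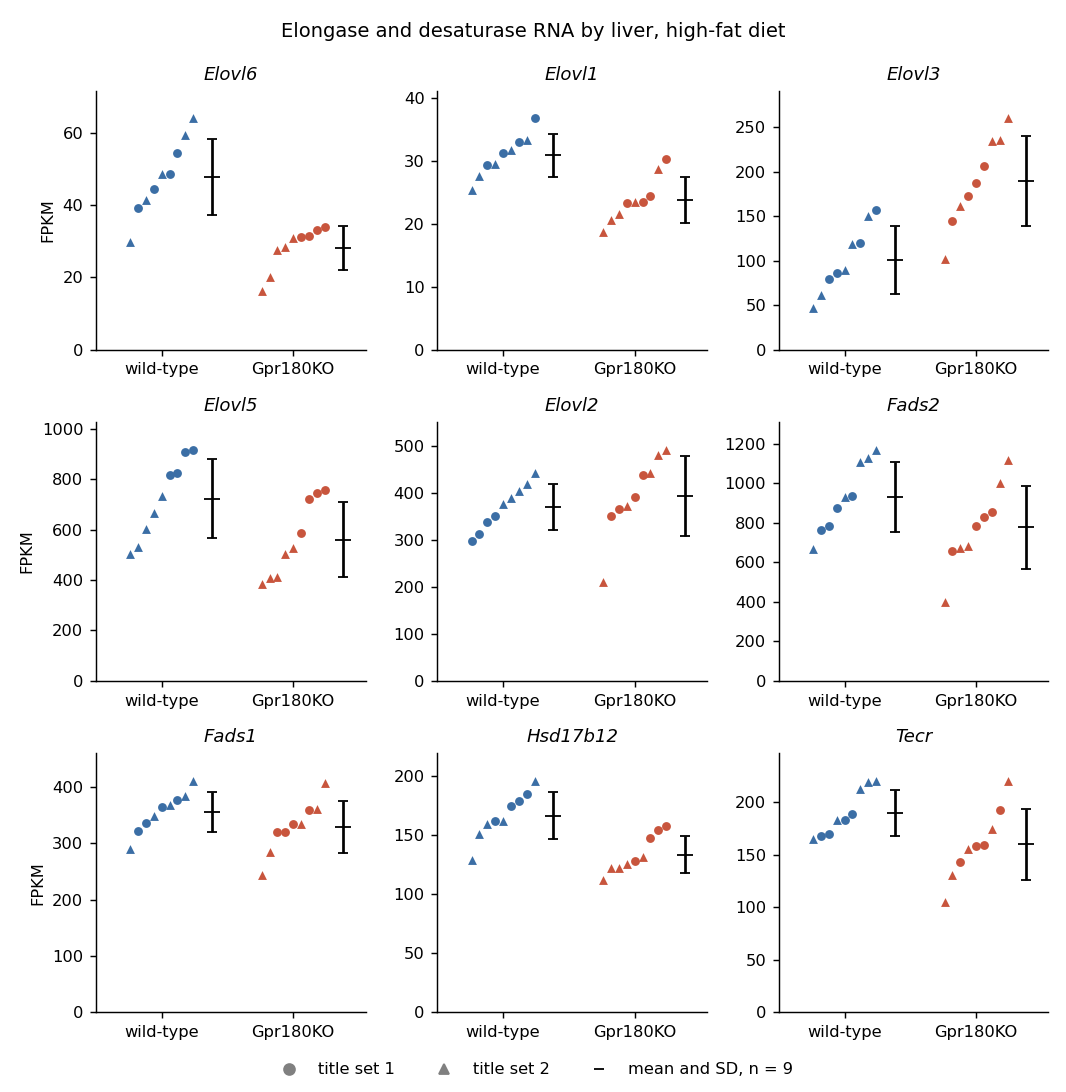
FPKM of each enzyme in every liver, with livers of each genotype ordered by value, circles for title set 1, triangles for title set 2, and a black mark and bar for the mean and SD of 9 livers; each vertical axis starts at 0. *Elovl3* rises from a mean of 100.8 to 189.4 FPKM, whereas *Elovl6* falls from 47.8 to 28.1 FPKM, and *Elovl2* and *Fads1* overlap nearly throughout.

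*Elovl6* (ENSMUSG00000041220.10, mm10 chr3:129532386-129638493, plus strand) extends palmitate and palmitoleate, the end products of fatty acid synthase and its desaturated partner, and is a well-known target of SREBP-1. In wild-type livers it ranged from 29.8 FPKM in W134 through a median of 48.7 to 64.03 FPKM in W133. In *Gpr180*KO livers it ranged from 16.1 FPKM in KO51 through a median of 30.9 to 34.0 FPKM in KO322. The groups met only at W134: the other 8 wild-type livers lay above every *Gpr180*KO liver, and all 9 *Gpr180*KO livers lay below the wild-type mean. The means were 47.8 ± 10.6 and 28.1 ± 6.11 FPKM (SD, n = 9 each), a log2 difference of -0.77 ± 0.16 (SE; limma adjusted p = 0.0147). Measured from the all-gene median it was -0.64. Median-of-ratios scaling gave -0.62 (limma adjusted p = 0.0265). It was called in each of the 18 fits that left out 1 library, with its highest adjusted p, 0.0384, without W133.

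*Elovl1* (ENSMUSG00000006390.15, chr4:118428093-118432916, plus strand) makes saturated and monounsaturated very-long chains, much of them for sphingolipids. It had the lowest level of the 9 members per kilobase of transcript. Wild-type livers spanned 25.4 to 36.7 FPKM with a median of 31.2, and *Gpr180*KO livers spanned 18.7 to 30.2 FPKM with a median of 23.4. Of the *Gpr180*KO livers 7 lay below every wild-type liver, and KO319 and KO51 lay inside the wild-type range. The log2 difference was -0.38 ± 0.09 (SE, n = 9 each; limma adjusted p = 0.0288). After median-of-ratios scaling it was -0.22 (adjusted p = 0.188), and with FPKM as deposited the call was lost when any of W317, W318, W320, W133, KO52, KO53 or KO54 was left out, with the highest adjusted p, 0.0677, without W133.

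*Elovl3* (ENSMUSG00000038754.5, chr19:46131899-46135694, plus strand) also makes saturated and monounsaturated very-long chains, and in mouse liver it is known for a male-biased and diurnal level. It was the member with the widest spread in wild-type livers, with a coefficient of variation of 37.7%. Wild-type livers ranged from 47.3 FPKM in W133 through a median of 89.0 to 157.03 FPKM in W319. *Gpr180*KO livers ranged from 102.1 FPKM in KO56 through a median of 187.6 to 259.7 FPKM in KO51. The ranges overlapped through KO56 and KO319: the other 7 *Gpr180*KO livers lay above every wild-type liver, and all 9 lay above the wild-type mean. The means were 100.8 ± 38.0 and 189.4 ± 50.2 FPKM (SD, n = 9 each), with a log2 difference of 0.96 ± 0.22 (SE; limma adjusted p = 0.0219). After median-of-ratios scaling the difference was 1.11 (limma adjusted p = 0.0247). *Elovl3* was called higher in each of the 18 fits without 1 library, with its highest adjusted p, 0.0476, without W317.

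*Elovl5* and *Elovl2* work one after the other on polyunsaturated chains. *Elovl5* (ENSMUSG00000032349.13, chr9:77917365-77984519, plus strand) spanned 502.2 to 917.0 FPKM in wild-type livers, with a median of 734.3, and 384.7 to 756.5 FPKM in *Gpr180*KO livers, with a median of 526.7. The ranges shared most of their width, and the log2 difference of -0.38 ± 0.16 (SE, n = 9 each) did not pass the test (limma adjusted p = 0.166). Much of that spread lay between the title sets, since the wild-type means were 867.0 ± 53.6 FPKM in set 1 and 607.0 ± 95.5 FPKM in set 2 (SD, n = 4 and 5), and the *Gpr180*KO means were 701.9 ± 79.6 and 446.8 ± 63.9 FPKM. *Elovl2* (ENSMUSG00000021364.16, chr13:41182382-41220403, minus strand) spanned 298.6 to 443.9 FPKM in wild-type livers, with a median of 378.2, and 211.6 to 493.1 FPKM in *Gpr180*KO livers, with a median of 392.5. KO51 was the low end of this range, with the next *Gpr180*KO liver at 351.7 FPKM. The log2 difference was 0.07, with a 95% confidence interval from -0.21 to 0.34 (limma adjusted p = 0.786).

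*Fads2*, the entry desaturase of the polyunsaturated route, had the highest level of the 9 members per kilobase of transcript. It lies on chr19:10064164-10101503 on the minus strand (ENSMUSG00000024665.8), and *Fads1*, the desaturase of the later step, lies near it on chr19:10182888-10196872 on the plus strand (ENSMUSG00000010663.5). *Fads2* spanned 670.4 to 1171 FPKM in wild-type livers, with a median of 932.0, and 401.0 to 1116 FPKM in *Gpr180*KO livers, with a median of 782.2. *Fads1* spanned 290.4 to 411.2 FPKM in wild-type livers, with a median of 364.2, and 243.6 to 406.5 FPKM in *Gpr180*KO livers, with a median of 333.6. Neither desaturase separated the genotypes, and KO51 was the lowest of all livers for both. The log2 differences were -0.29 for *Fads2* (95% confidence interval -0.62 to 0.05, limma adjusted p = 0.299) and -0.12 for *Fads1* (-0.31 to 0.07, adjusted p = 0.447). *Fads1* took the opposite sign after median-of-ratios scaling (0.04, adjusted p = 0.877). Within groups the 2 desaturases varied together from liver to liver: after the mean of each genotype in each title set was removed, Pearson's r between their log2 values was 0.92 over 18 livers (permutation p = 5e-05, adjusted over 5 pairs 0.00025) and Spearman's rho was 0.84 (permutation p = 0.00023). Without KO51 and W134, the 2 livers farthest from the median of *Fads1*, r was 0.84. All values of a library share its FPKM denominator, which adds to any such correlation.

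The 2 reductases serve all chains. *Hsd17b12* (ENSMUSG00000027195.10, chr2:94032697-94157909, minus strand) spanned 129.0 to 195.5 FPKM in wild-type livers, with a median of 161.6, and 111.6 to 157.1 FPKM in *Gpr180*KO livers, with a median of 127.8. All 9 *Gpr180*KO livers lay below the wild-type mean, and 7 wild-type livers lay above every *Gpr180*KO liver. The log2 difference was -0.32 ± 0.09 (SE, n = 9 each; limma adjusted p = 0.0393). It was -0.16 after median-of-ratios scaling (adjusted p = 0.228), and with FPKM as deposited it was called in only 6 of the 18 fits that left out 1 library, with the highest adjusted p, 0.0887, without W133. *Tecr* (ENSMUSG00000031708.16, chr8:83571698-83594491, minus strand) spanned 165.4 to 220.6 FPKM in wild-type livers, with a median of 183.0, and 104.9 to 220.1 FPKM in *Gpr180*KO livers, with a median of 158.6. For *Tecr* 6 *Gpr180*KO livers lay below every wild-type liver, but KO51 lay at the top of the wild-type range, and the log2 difference of -0.27 ± 0.11 (SE) did not pass (limma adjusted p = 0.175).

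**Figure D2:**
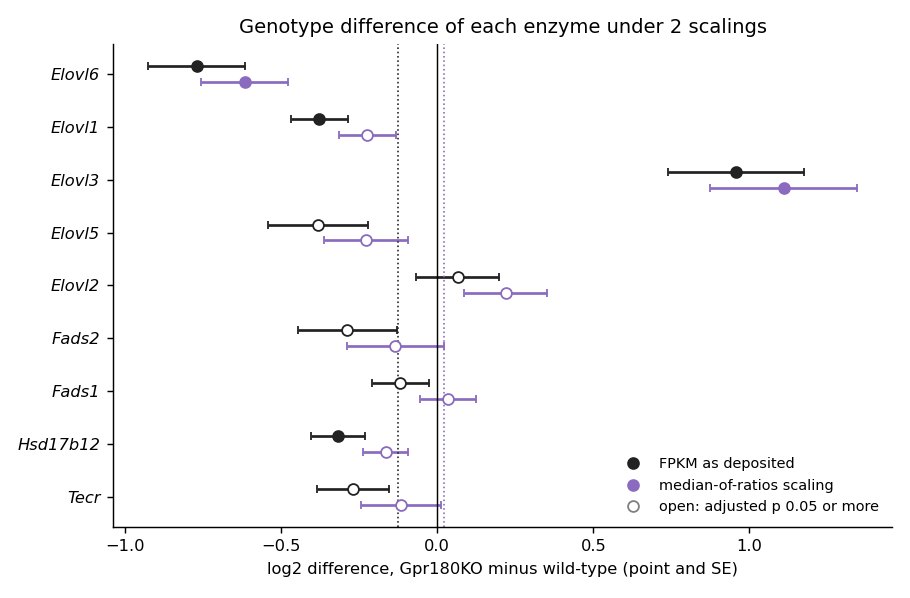
Log2 difference, *Gpr180*KO minus wild-type, of each enzyme with its SE from limma, for FPKM as deposited (black) and after median-of-ratios scaling (purple), with filled points for an adjusted p under 0.05 and dotted lines at the median of all genes. Only *Elovl6* (-0.77 and -0.62) and *Elovl3* (0.96 and 1.11) are filled under both scalings.

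The title sets were then examined apart. With FPKM as deposited every member except *Elovl2* (0.25 in set 1 and -0.08 in set 2) kept its direction in each. In set 1, with 4 livers per genotype, *Elovl6*, *Hsd17b12* and *Elovl5* were lower in every *Gpr180*KO liver than in any wild-type liver, and *Elovl2* was higher in every one. Such separation in set 1 was seen for 11.5% of all genes in the lower direction and 3.29% in the higher direction. In set 2, with 5 livers per genotype, no member separated, beside 5.5% and 0.545% of all genes. *Elovl6* was 46.8 ± 6.49 FPKM in wild-type against 32.4 ± 1.41 FPKM in *Gpr180*KO livers of set 1, and 48.7 ± 13.8 and 24.6 ± 6.24 FPKM in set 2 (SD, n = 4 and 5). *Elovl3* was 110.3 ± 35.7 and 177.8 ± 26.5 FPKM in set 1, and 93.2 ± 42.0 and 198.6 ± 65.3 FPKM in set 2. With the title set as a term in the limma fit, 4 members were called lower (*Elovl1*, *Elovl5*, *Elovl6* and *Hsd17b12*, adjusted p = 0.0106, 0.0117, 0.00581 and 0.0111) and 1 higher (*Elovl3*, 0.0122), beside 9.52% and 1.13% of all genes. *Elovl5* thus passed the test only in this fit, with the same log2 difference of -0.38 and an SE of 0.09 in place of 0.16. The test of unequal effects in the sets, the interaction term, was passed by 0 of the 9 members, with 0 at an unadjusted p under 0.05 and a lowest limma adjusted p of 0.747 for *Elovl6*.

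The order of levels per kilobase of transcript over all livers was *Fads2*, *Elovl5*, *Elovl2*, *Fads1*, *Tecr*, *Hsd17b12*, *Elovl3*, *Elovl6* and *Elovl1*. Neighbours at the top were not well apart, since *Fads2* exceeded *Elovl5* in 7 of 9 livers of each genotype and *Elovl2* exceeded *Fads1* in 6 wild-type and 7 *Gpr180*KO livers. *Fads1* exceeded *Tecr* in all 18. The place that differed between genotypes was that of *Elovl3*: *Hsd17b12* exceeded it in 9 of 9 wild-type livers but in 1 of 9 *Gpr180*KO livers, KO56. Among the summed FPKM of the 5 elongases, which was 1273 ± 123 in wild-type and 1196 ± 165 in *Gpr180*KO livers (SD, n = 9 each), *Elovl3* made up 8.01 ± 3.24% and 16.2 ± 5.73%. *Elovl5* made up 56.2 ± 7.25% and 46.3 ± 7.19%, *Elovl2* 29.6 ± 6.07% and 33.1 ± 7.18%, *Elovl6* 3.77 ± 0.870% and 2.34 ± 0.393%, and *Elovl1* 2.43 ± 0.191% and 2.04 ± 0.503%. These shares are a description, since they follow from the values already tested.

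**Figure D3:**
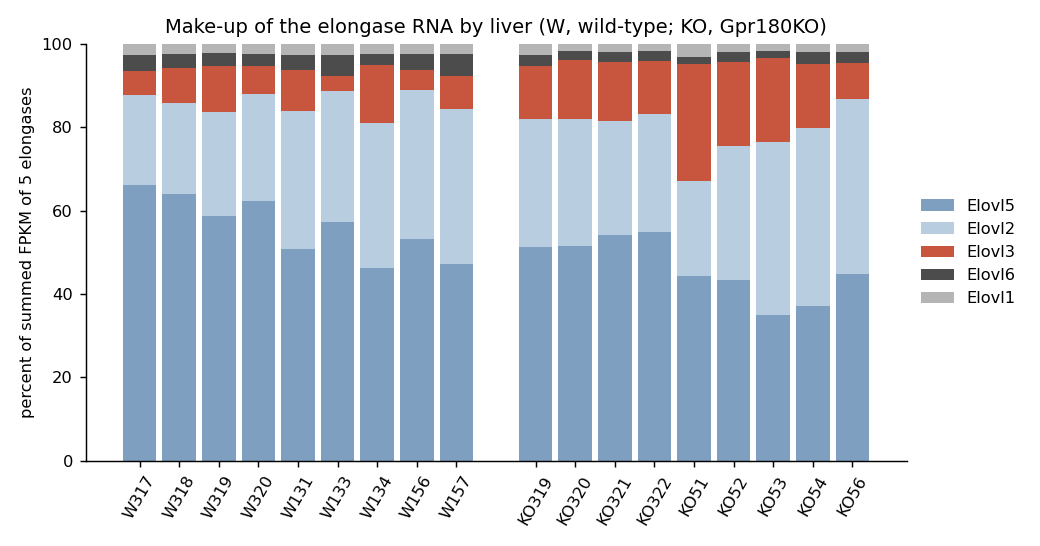
Percent of the summed FPKM of the 5 elongases in each liver, 1 bar a liver, stacked by gene from 0 to 100. The *Elovl3* segment spans 3.69 to 13.8% in wild-type and 8.68 to 28.0% in *Gpr180*KO livers, with its tallest segment in KO51.

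Ratios within a liver do not depend on how libraries are scaled to each other. For 5 pairs of enzymes that serve a common route they were tested by two-sided exact permutation over all 48620 splits into 9 and 9, adjusted over the 5. They are built from values also tested gene by gene, so they are not separate evidence of a difference. The ratio of *Elovl3* to *Tecr*, the first and last enzymes of a turn of the cycle, had a median of 0.456 in wild-type livers (0.222 to 0.923) and 1.18 in *Gpr180*KO livers (0.585 to 2.24). It was higher in *Gpr180*KO livers by 1.23 on the log2 scale (exact p = 0.00128, adjusted 0.00638), above the wild-type mean in 9 of 9 and above every wild-type liver in 7. The ratio of *Elovl6* to *Hsd17b12*, which catalyse consecutive steps of the cycle, had a median of 0.276 in wild-type livers (0.197 to 0.462) and 0.220 in *Gpr180*KO livers (0.123 to 0.254), lower by a log2 difference of -0.45 (exact p = 0.00884, adjusted 0.0221) and below the wild-type mean in 9 of 9. *Elovl6* thus fell by more than the reductase with which it works, although neither title set alone passed (exact p = 0.0857 in set 1 and 0.0635 in set 2).

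The ratio of *Elovl6* to *Scd1*, the abundant stearoyl-CoA desaturase that acts with it in turning palmitate into oleate, was lower by a log2 difference of -0.41 (exact p = 0.0176, adjusted 0.0293), and below the wild-type mean in 9 of 9 *Gpr180*KO livers. In title set 2 the difference was -0.75 (exact p = 0.0238), and in title set 1 it was 0.0308 (exact p = 0.6). *Elovl6* and *Scd1* varied together within groups with a Pearson's r of 0.64 over 18 livers (permutation p = 0.0389, adjusted over 5 pairs 0.0972), Spearman's rho of 0.61 (permutation p = 0.0368) and r of 0.75 without W134 and KO51. The ratios in the polyunsaturated route did not pass: *Elovl2* to *Elovl5* differed by 0.45 (exact p = 0.0721, adjusted 0.0901) and *Fads1* to *Fads2* by 0.17 (exact p = 0.0988, adjusted 0.0988). When livers were permuted within their title sets, *Elovl2* to *Elovl5* had an exact p of 0.0093. For the other 3 pairs tested for joint variation, r was 0.20 for *Elovl2* and *Elovl5* (permutation p = 0.642), 0.03 for *Elovl6* and *Hsd17b12* (permutation p = 0.945) and -0.43 for *Elovl3* and *Tecr* (permutation p = 0.134, adjusted 0.224; rho -0.63, permutation p = 0.0133, adjusted 0.0333).

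The member that rose was also set against the members that fell, as a description with no test. The ratio of *Elovl3* to *Elovl6* ran from 0.739 in W133 through a median of 2.19 to 5.05 in W134 among wild-type livers, and from 3.30 in KO56 through a median of 5.69 to 16.1 in KO51 among *Gpr180*KO livers. Of the *Gpr180*KO livers 7 lay above every wild-type liver, and W134 was the wild-type liver with both a low *Elovl6* and a high *Elovl3*, although its *Gpr180* RNA, at 5.18 FPKM, lay inside the wild-type range. The ratio to *Elovl1* had medians of 3.24 and 7.82, and the ratio to *Hsd17b12* had medians of 0.648 and 1.34, with 7 and 8 *Gpr180*KO livers above every wild-type liver.

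**Figure D4:**
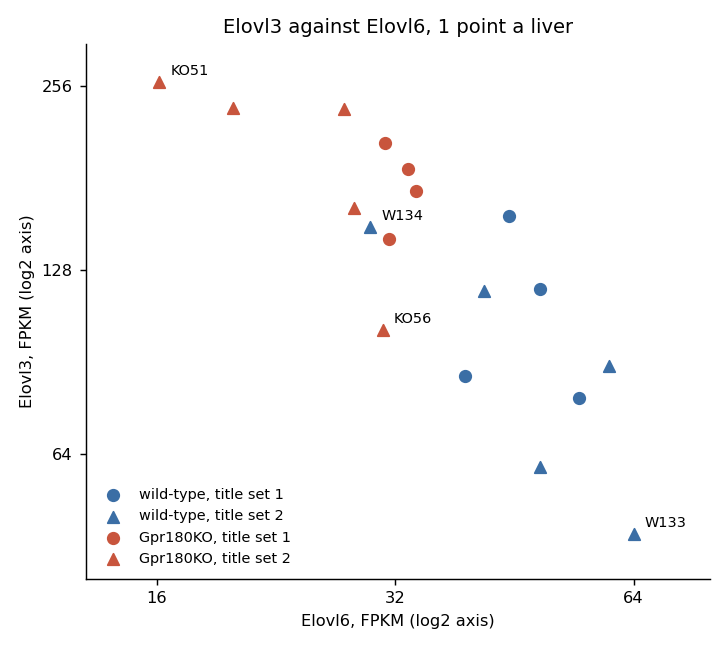
*Elovl3* FPKM against *Elovl6* FPKM in each of 18 livers, both on log2 axes, coloured by genotype with a symbol for the title set. *Gpr180*KO livers lie at the upper left, W134 (29.8 FPKM of *Elovl6* and 150.3 of *Elovl3*) lies among them, and W133 and KO51 mark the opposite ends.

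The genes whose pattern was most like each called member were sought over the 18 livers after the mean of each genotype within each title set was removed, by Pearson's r across all tested genes. For *Elovl3* the closest were *Mup21* (r = 0.91), *Serpine2* (0.86), *Mup3* (0.85), *Cyp7b1* (0.80) and the complement gene *C6* (0.78). *Mup21* and *Mup3* encode major urinary proteins and *Cyp7b1* an oxysterol hydroxylase, and these 3 were themselves higher in *Gpr180*KO livers by 0.84, 0.81 and 0.81 on the log2 scale (limma adjusted p = 0.0285, 0.031 and 0.0464). The *Mup* genes are near-identical copies, so how reads were divided among them is uncertain. For *Elovl6* the closest were *Nkiras2*, *Tenm3*, *Pcif1*, *Usp22* and *Sc5d* (r from 0.93 to 0.90), of which *Nkiras2* (-0.50, adjusted p = 0.0415) and the sterol desaturase *Sc5d* (-0.44, adjusted p = 0.0428) were called lower. For *Elovl1* they were *Copz2*, *Tomm5*, *Apopt1*, *Acot13* and *Them6* (r from 0.95 to 0.90), and for *Hsd17b12* *Cklf*, *Fam213a*, *Rtn4*, *Atp6v1c1* and *Hprt* (r from 0.94 to 0.87), none of them called. The lists are the top of a ranking over 10835 genes and carry no p.

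*Elovl3* was further set beside genes of the 2 kinds of regulation it is known for, first a list of male-biased liver genes. This list was chosen with earlier results of these data known, and its *Cyp7b1* and *C6* are also among the genes closest to *Elovl3* above. Of 10 male-biased liver genes 1 was called higher and 0 lower, beside 0.452% and 4.28% of all genes. All 10 differences were above 0, with a median of 0.48 (-0.13 over all genes). Of the 8 hepatocyte markers 0 were below 0 either, with a median of 0.19. The one called was *Cyp7b1*, while the most abundant of the list, *Gstp1* (0.42, limma adjusted p = 0.245) and *Cyp2d9* (0.05, adjusted p = 0.922), did not pass, and 4 of the 10 had an unadjusted p under 0.05. *Hsd3b5*, named after its values were seen, had the list's highest difference, 3.51 (10.6 ± 20.9 FPKM in wild-type against 63.0 ± 62.0 FPKM in *Gpr180*KO livers, adjusted p = 0.0591). Of 14 circadian clock genes 11 were tested and 0 were called in either direction by limma, and 0 after median-of-ratios scaling. At an unadjusted p under 0.05 were 2, *Per3* (-0.96, limma adjusted p = 0.135) and *Per2* (-0.61, adjusted p = 0.095). Of the 11 differences 9 were below 0, with a median of -0.18 (-0.13 over all genes). *Nr1d1*, the most abundant clock gene of the list, was 32.9 ± 8.15 FPKM in wild-type against 31.1 ± 7.24 FPKM in *Gpr180*KO livers (SD, n = 9 each). *Tef* differed by -0.18 (adjusted p = 0.586).

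The remaining enzymes of the cycle gave no calls. Of the 7 other elongation genes 3 were abundant enough to test, and 0 were called by limma under either scaling, with 2 at an unadjusted p under 0.05. They were the dehydratase genes *Hacd3* (66.7 FPKM in wild-type livers, log2 difference -0.12, adjusted p = 0.448), *Hacd2* (17.7 FPKM, -0.15, adjusted p = 0.183) and *Hacd1* (9.31 FPKM, -0.38, adjusted p = 0.0524), listed in the files under the *Ptpl* names. *Elovl4*, *Elovl7* and *Tecrl* were at or near 0, so the 5 elongases above make up nearly all of the elongase RNA of these livers. The other desaturases gave 0 calls among 6 genes under either scaling (1 at an unadjusted p under 0.05). With FPKM as deposited all 6 differences were below 0, with a median of -0.36 beside -0.13 over all genes. After median-of-ratios scaling *Fads3* was at 0.09, and the list's median was -0.20 beside 0.02 over all genes. The list was led by *Scd1* (5453 ± 1145 FPKM in wild-type against 4248.5 ± 1020 FPKM in *Gpr180*KO livers, log2 difference -0.36, limma adjusted p = 0.154) and *Scd3* (-0.58, adjusted p = 0.313). Of the genes that bring electrons to desaturases, 5 were tested and 0 called under either scaling (2 at an unadjusted p under 0.05), among them the cytochrome *Cyb5a* (-0.16, adjusted p = 0.299) and its reductase *Cyb5r3* (-0.31, adjusted p = 0.15).

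The supply of malonyl-CoA and palmitate, the carbon that ELOVL6 uses, was examined next. Of its 7 genes 3 were called lower and 0 higher, beside 4.28% and 0.452% of all genes. The median log2 difference of the 7 was -0.66, beside -0.13 over all genes. Acetyl-CoA synthetase *Acss2* (-0.999, limma adjusted p = 0.0146), ATP citrate lyase *Acly* (-0.66, 0.0424) and acetyl-CoA carboxylase *Acaca* (-0.63, 0.0337) fell, and fatty acid synthase *Fasn* had a log2 difference of -0.81 that did not pass (0.106). The rest did not pass either: *Acacb* (-0.74, 0.0717), *Slc25a1* (-0.25, 0.233) and *Mlycd*, the one gene of the list above 0 (0.16, 0.3). After median-of-ratios scaling *Acss2* alone was called, beside 1.34% of all genes lower, and the list's median was -0.51. Among 6 tested genes of acyl-CoA activation 1 was lower and 1 higher, against the same 4.28% and 0.452% of all genes. *Acsl3* was lower (-0.66, adjusted p = 0.0162). The very-long-chain acyl-CoA synthetase *Slc27a2* was higher (0.27, adjusted p = 0.0337), at 560.1 ± 58.1 FPKM in wild-type against 671.8 ± 32.1 FPKM in *Gpr180*KO livers. Its relative *Slc27a5* differed by 0.24 (adjusted p = 0.124). After median-of-ratios scaling *Acsl3* was again called lower (-0.51, adjusted p = 0.0472) and *Slc27a2* again higher (0.42, adjusted p = 0.023).

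Downstream, the 8 genes of peroxisomal chain shortening gave 0 calls under either scaling (1 at an unadjusted p under 0.05, median -0.08), led by *Scp2* (0.08, limma adjusted p = 0.522) and *Acaa1b* (-0.02, adjusted p = 0.96). Of 4 tested genes that place polyunsaturated acyl chains in phospholipids 0 were called under either scaling (2 at an unadjusted p under 0.05, median -0.20), among them *Agpat3* (-0.07, adjusted p = 0.689) and *Lpcat3* (-0.22, adjusted p = 0.217). Of 12 genes that control transcription of this pathway 1 was lower and 0 higher, beside 4.28% and 0.452% of all genes. The one lower was *Srebf2* (-0.51, limma adjusted p = 0.0159), the factor of sterol synthesis. It was also called after median-of-ratios scaling (-0.36, adjusted p = 0.0377), where 1.34% of all genes were lower and 1.35% higher. *Srebf1*, the factor of fatty acid synthesis and of *Elovl6*, differed by 0.32 (69.3 ± 14.0 and 86.3 ± 16.002 FPKM, adjusted p = 0.138), and after the scaling it was called higher (0.47, adjusted p = 0.046). The most abundant of the list, the SREBP retention genes *Insig2* (0.05, adjusted p = 0.887) and *Insig1* (-0.41, adjusted p = 0.0533), were not called.

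**Figure D5:**
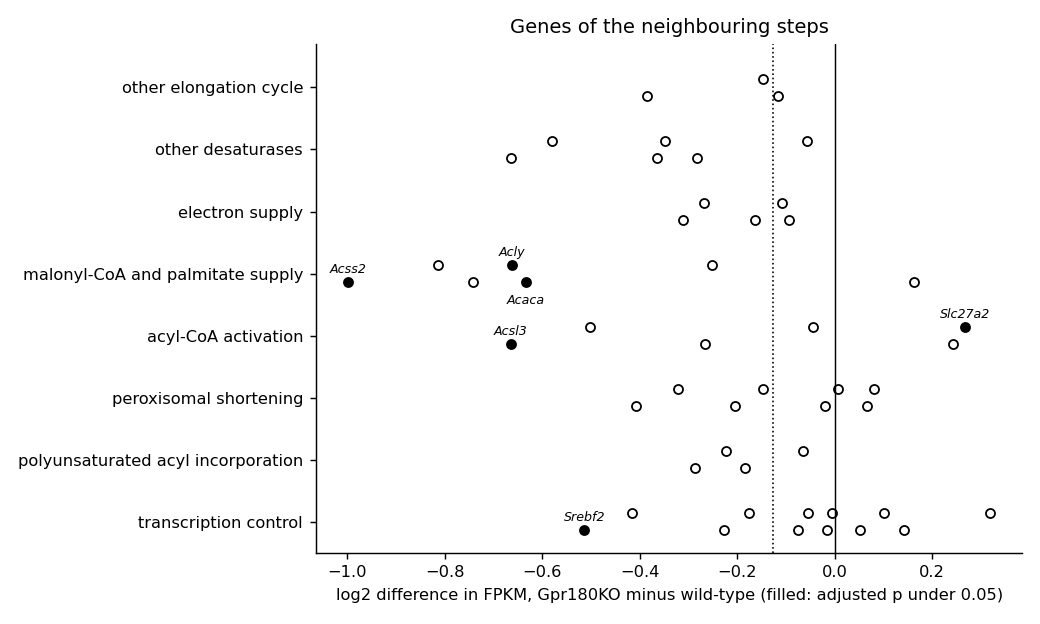
Log2 difference, *Gpr180*KO minus wild-type, of each tested gene in 8 lists around the elongation and desaturation steps, with filled points for a limma adjusted p under 0.05 and a dotted line at the median of all genes, -0.13. Filled points lie in 3 lists, with *Acss2* at -0.999 lowest and *Slc27a2* at 0.27 the one filled point above 0.

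These are bulk livers, in which fewer cells of a type and less RNA per cell cannot be told apart. Markers of some other cell types, but not of all, differed between the genotypes. Of 8 stellate or fibroblast markers 5 were lower (*Dcn*, *Pdgfrb*, *Col1a1*, *Col3a1* and *Lum*), where 4.28% of all genes were called lower. Sums over the 8 were 149.2 to 292.8 FPKM in wild-type and 91.8 to 145.8 FPKM in *Gpr180*KO livers. Of 8 macrophage markers 1 was lower (*Cd68*, with sums of 144.0 to 396.5 and 169.9 to 242.0 FPKM). Both testable cholangiocyte markers were lower (*Spp1* and *Sox9*, with sums over 6 markers, mostly *Spp1*, of 41.1 to 226.7 and 17.6 to 51.2 FPKM). *Sox9* was not called after median-of-ratios scaling (-0.56, limma adjusted p = 0.138), whereas *Spp1* was (-1.81, adjusted p = 0.0161). The 8 endothelial markers gave 0 calls and 0 at an unadjusted p under 0.05 by limma (sums of 88.9 to 140.3 and 82.0 to 128.1 FPKM), lymphocyte markers were all too low to test (sums of 1.37 to 5.25 and 1.27 to 3.34 FPKM), and the 2 adipocyte-list genes high enough to test, *Car3* and *Cfd*, were not called, with 0 at an unadjusted p under 0.05 (sums over 6 genes, mostly *Car3*, of 1902 to 2586 and 1647 to 2590 FPKM). Of the adipocyte list *Plin1* was at 0 in every liver, *Adipoq* and *Lep* were at or near 0 and *Retn* reached 1.26 FPKM in 1 *Gpr180*KO liver, while *Cfd* averaged 18.8 FPKM in wild-type against 52.3 FPKM in *Gpr180*KO livers, where it spanned 4.36 to 277.7 FPKM. The 8 hepatocyte markers gave 0 calls, with 1 at an unadjusted p under 0.05, and sums of 31352 to 40228 FPKM in wild-type and 35225 to 68541 FPKM in *Gpr180*KO livers. Of their 8 differences 0 were below 0, with a median of 0.19 beside -0.13 over all genes. The part of these cells in the differences of *Elovl1*, *Elovl3*, *Elovl6* and *Hsd17b12* was not tested.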

How the data were processed

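Liver mRNA of 9 wild-type and 9 *Gpr180*KO mice was sequenced as single reads of 75 bases and aligned to mm10 (GRCm38) with TopHat by the authors. The deposited tables give FPKM per gene and 2 bounds on it, as output of Illumina's TopHat Alignment application, whose FPKM step is not described further. They hold no read counts, and the study's methods give only an approximate range of reads per sample, so the depth behind each value is unknown. For *Elovl2*, *Elovl5*, *Fads1*, *Fads2* and *Hsd17b12* the FPKM lies outside the deposited bounds in all 18 libraries, and for *Elovl3* in 17, by a factor nearly constant per gene. FPKM values of a symbol were summed, and 24 genes with failed estimates were left out.

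Log2(FPKM + 0.1) of the 10835 genes averaging 1 FPKM or more was fitted by genotype with limma 3.58.1 in R 4.3.3 (lmFit and eBayes with trend). P-values were adjusted by Benjamini-Hochberg and called under 0.05. On simulated data for this comparison, 91% of 200 genes changed by 1 on the log2 scale were called among 10835, and 2.7% of the called genes were unchanged. The simulated noise was independent between genes and held no title sets. With FPKM as deposited every member differed by less than 1, so these rates do not carry over to the members. Ratios were tested by exact permutation in Python 3.11.15 with numpy 2.4.6, and correlations with 100000 permutations. Replicates are mice, as the titles number them. Named genes were mainly all members, every called gene and the 2 most abundant of each pathway list, and the 5 genes most correlated with each called member. Some were named outside these rules, among them *Hacd1*, *Srebf1*, *Hsd3b5*, *Fads3*, *Acacb*, *Mlycd*, *Per2* and *Per3*. Members and lists were chosen with earlier results of these data known. Alternatives were other pseudocounts, minimum levels, scalings, title set terms and left-out libraries, and, chosen after seeing the data, the midpoint of the bounds and scalings combined with title sets.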

Additional observations from a re-analysis of the deposited data

Results flagged for a closer look

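*Elovl2* in KO51 was 211.6 FPKM, apart from the other 8 *Gpr180*KO livers, the next lowest of which was at 351.7 FPKM. The gap was 0.601 of the group's whole range on the log2 scale, above Dixon's 95% critical value for 9 livers. It was the 1 value that stood apart so among 18 groups of livers examined (9 genes in 2 genotypes), and chance gives about 1 in 20 groups. KO51 also had the lowest *Elovl6*, *Fads1* and *Fads2* and the highest *Elovl3* and summed FPKM of the *Gpr180*KO livers. Whether these share a source was not tested.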

How the results depend on the processing

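With limma's arrayWeights *Tecr* was also called lower (adjusted p = 0.0313). The 2 calls held under every scaling over all 18 libraries and every fit without 1 library were *Elovl3* higher and *Elovl6* lower. Members called lower numbered 1 (*Elovl6*), in place of 3, under median-of-ratios scaling, 75th percentile scaling, median-of-ratios scaling with title set as a term, title set 1 alone and title set 1 alone after that scaling (3, 3, 4, 4 and 4 at an unadjusted p under 0.05). They numbered 0 in title set 2 alone, as deposited (4 unadjusted) and scaled (1 unadjusted). Members called higher numbered 0, in place of 1, in title set 1 alone (limma, 2 unadjusted) and in title set 2 alone (1 unadjusted), as deposited and scaled, where fewer libraries entered the fit. Without 1 library, members called lower numbered 1 to 3 and members called higher 1 to 1. Among these alternatives the share of all genes called was worked out for median-of-ratios scaling only (1.34% lower and 1.35% higher). The other counts therefore cannot be set against a share over all genes, and they are not read as results about the members.

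The difference of *Fads1* turned to 0.0358 under median-of-ratios scaling, with or without the title set term, to 0.0202 in title set 1 and to 0.0482 in title set 2 under that scaling, and that of *Elovl2* to -0.0832 in title set 2 alone. The ratio of *Elovl6* to *Scd1* was 0.0308 in title set 1 alone. The ratio of *Elovl2* to *Elovl5* passed in title set 1 alone (0.56, exact p = 0.0286, the smallest that 4 against 4 livers allow) and when permuted within title sets (0.45, exact p = 0.0093). The ratio of *Elovl6* to *Hsd17b12* was -0.26 and -0.60 in title sets 1 and 2 alone (exact p = 0.0857 and 0.0635), and that of *Elovl3* to *Tecr* 0.86 in set 1 (exact p = 0.0571). The cause was not tested. Without 1 library the log2 differences of the ratios ranged from 0.11 to 0.20 (*Fads1* to *Fads2*), 0.35 to 0.52 (*Elovl2* to *Elovl5*, passing without W134 or W157), -0.47 to -0.32 (*Elovl6* to *Scd1*), -0.52 to -0.36 (*Elovl6* to *Hsd17b12*) and 1.08 to 1.35 (*Elovl3* to *Tecr*). Of 214 values recomputed under alternatives other than leaving out 1 library, 170 were labelled the same as in the main fit. For a log2 difference or a ratio this meant the same direction and the same side of the threshold. The 214 also hold counts of members called, labelled the same even where 4 in place of 3 were called lower. No paired analysis was possible because the title numbers name single mice, and the 2 numbers found in both genotypes belong to different animals. Read totals per library were not given, so counting error was not separated from the spread between mice.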
